A study of Drosophila melanogaster with 16 samples.

Results

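The Imd pathway is the arm of fly immunity that answers to bacterial peptidoglycan, and 10 of its genes are described here by the openness of their chromatin in the adult fat body. The 7 activators are the receptors PGRP-LC and PGRP-LE, the adaptor imd, the kinase Tak1, the kinase complex subunit key, the caspase Dredd and the NF-kappaB factor Rel. The 3 inhibitors are PGRP-LB, PGRP-LF and pirk. A peak was taken as belonging to a gene when its midpoint lay within the gene or at most 1000 bp beyond either end, with gene spans from RefSeq on the assembly behind dm6. The rule uses gene names and positions and no read number, but the genes were picked with earlier results of these data known. The rule found 13 of the 8069 peaks, 8 at 5 activators and 5 at the 3 inhibitors, and none at Rel or Dredd.

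Peptidoglycan of most Gram-negative bacteria binds PGRP-LC at the cell surface or PGRP-LE inside the cell, and the signal passes through imd to Dredd and Tak1. Tak1 switches on the IKK complex, of which key is the regulatory subunit, and Dredd cleaves Rel so that its DNA-binding part enters the nucleus. There it turns on genes of antimicrobial peptides, which the fat body secretes into the haemolymph, and also genes of its own inhibitors, so that the pathway limits itself. Flies mutant for most of these activators are sensitive to Gram-negative infection, and loss of the inhibitors leaves the pathway too active.

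The material was fat body from virgin w1118 females, 25 flies per library, dissected after 25 days in the condition. The groups were 11 °C with ethanol, 11 °C with S-methoprene, 25 °C with S-methoprene and 25 °C with ethanol, with 4 ATAC-seq libraries each by the labels. S-methoprene is a juvenile hormone analog, given as vapour in 99% ethanol (10 µL of 39.4 mM every 2 days), and ethanol alone was the vehicle. Flies entered a library only if their ovaries had the expected look, regressed at 11 °C with ethanol (the reproductive arrest called diapause) and large in the other 3 groups, so temperature goes with ovary state in part or in full. No infection was part of the design.

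The authors' deposited table gives for each peak the log2 of the mean normalised read number at each temperature, a fitted log2 fold change of 25 °C over 11 °C, and a false discovery rate (FDR) adjusted over all 8069 peaks. Single libraries are not listed in it, so no standard error or replicate spread can be printed, depth per library is unknown, and S-methoprene and ethanol flies cannot be told apart. Libraries of the 2 temperatures enter the overall mean of a peak with weights in the ratio of 4 at 11 °C to 3 at 25 °C, so not all labelled libraries were used. Differences below are log2 reads at 25 °C minus log2 reads at 11 °C, so that a negative value means higher at 11 °C, and a peak is called when its FDR is under 0.05. The median peak of the table held 163 reads and the median difference was -0.02, with quartiles of -0.17 and 0.16. In such bulk tissue a change in the share of a cell type and a change in accessibility within a cell cannot be told apart.

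Of the 13 peaks, 3 were called higher at 11 °C, at Tak1, key and PGRP-LB, and 2 were called higher at 25 °C, at imd and PGRP-LF. Over all peaks of the authors' deposited table, 10.0% were called higher at 11 °C, 12.2% were called higher at 25 °C and 22.2% were called in either direction. With so few member peaks the calls are described and no test of their number was made. Both roles held calls both ways. Among the activators 2 called peaks favoured 11 °C and 1 favoured 25 °C, and among the inhibitors 1 peak went each way. This mixture rests in part on peaks at or beyond gene ends and on peaks shared with other genes. Without peaks that reach another protein-coding gene, the activator call was that of Tak1, higher at 11 °C, and the inhibitor call that of PGRP-LF, higher at 25 °C. With midpoints inside the gene only, which left 7 peaks, 3 were called higher at 11 °C and 0 higher at 25 °C. That split turns on short distances at gene ends. The midpoint of the key peak lay 18 bp inside its gene, and those of the called imd and PGRP-LF peaks 41 and 102 bp outside. Median differences were -0.03 over the 8 activator peaks and -0.02 over the 5 inhibitor peaks, against -0.02 over all peaks, and without shared peaks the inhibitor median was 0.22 over 2 peaks. The called changes were modest, 1.20-fold to 1.53-fold, and each of the 8 peaks not called had an FDR of 0.351 or more, so none lay just short of the threshold.

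**Figure D1:**
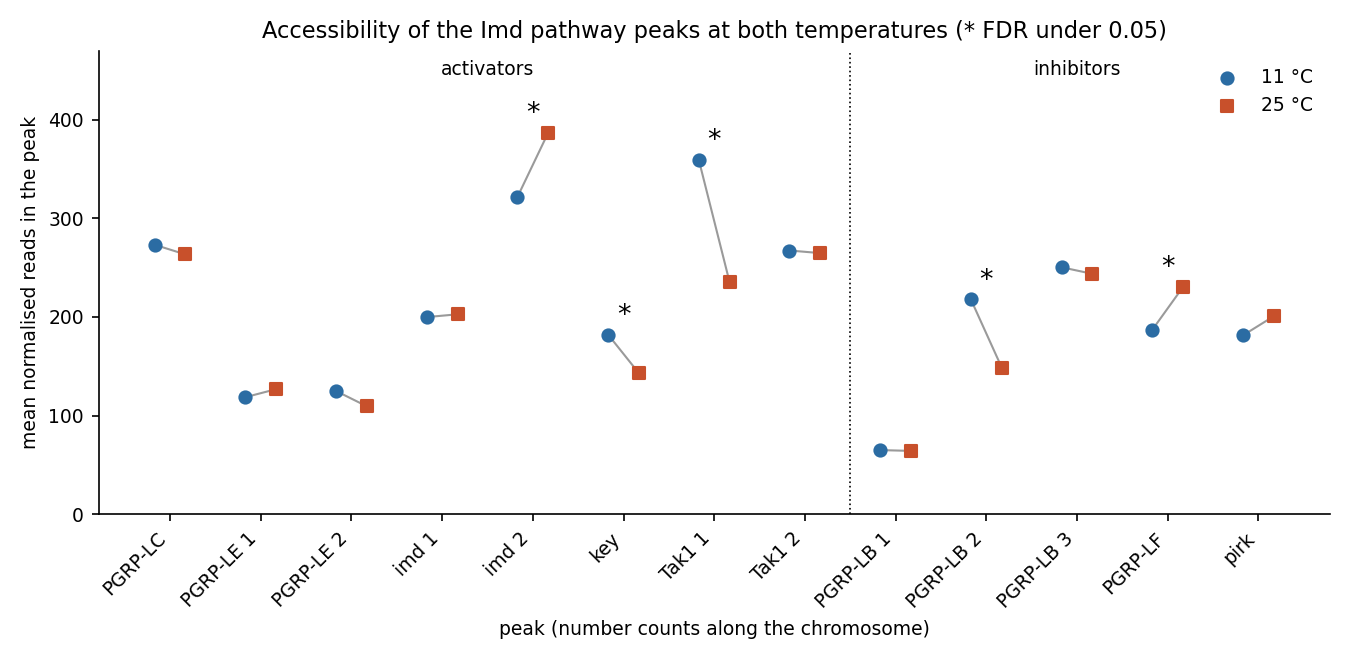
Mean normalised reads per peak (vertical axis) for the 13 Imd pathway peaks (horizontal axis), with 11 °C as blue circles and 25 °C as red squares joined by a grey line, activators left of the dotted line and inhibitors right of it. No error bar is drawn because the table gives means only. Tak1 peak 1 shows the longest line, 359 reads at 11 °C and 235 at 25 °C, and Tak1 peak 2 beside it has 267 at 11 °C and 265 at 25 °C.

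The receptors of the pathway showed no called change. PGRP-LC, the main surface receptor, had a single peak 1629 bp inside its lower-coordinate end (3L, 9340239 to 9340639). In the authors' deposited table it held 273 reads at 11 °C and 263 at 25 °C, a difference of -0.05 (FDR 0.873). PGRP-LE, which senses peptidoglycan fragments inside the cell and in a secreted form outside it, had 2 of the less accessible peaks among the members. Its peak within the gene (X, 15802791 to 15803191) had 119 reads at 11 °C and 127 at 25 °C in the authors' deposited table, a difference of 0.10 (FDR 0.676). The PGRP-LE peak 489 bp beyond the upper end (X, 15804169 to 15804569) was not called either, with 125 reads at 11 °C and 109 at 25 °C in the authors' deposited table, a difference of -0.19 (FDR 0.404). That peak also lies in reach of sd, a transcription factor gene. The interval around these small differences is not known without single-library values, and a missed threshold does not show equal accessibility.

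The adaptor gene imd held the most accessible peak of the group at 25 °C. It spans the upper-coordinate end of the gene (2R, 18413440 to 18413840), and the authors' deposited table gives 322 reads at 11 °C and 387 at 25 °C. For this imd peak the difference was 0.27, and the authors' deposited table has a fitted log2 fold change of 0.20 and an FDR of 0.0485, so it passed by a small margin. The same peak lies in reach of the neighbouring gene Dp1. Its other peak, 723 bp beyond the lower end of imd (2R, 18408873 to 18409273), was not called, with 200 reads at 11 °C and 203 at 25 °C in the authors' deposited table (FDR 0.878), and lies among the glutathione transferase genes GstE8 and GstE9. Of the 9 peaks within 20 kb of the called imd peak, 1 was called, at the chitinase-like gene Idgf5, and it was also higher at 25 °C. Differences of these 9 peaks, the other imd peak among them, ran from 0.0093 to 0.54, so all lay on the same side of 0 as the called imd peak. Over all peaks 12.2% were called higher at 25 °C, and a shift of the region was not tested.

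Tak1, the kinase that passes the signal from imd to the IKK complex and to the JNK branch, had the largest change of the 13 peaks. In the authors' deposited table its peak in the gene body (X, 20519520 to 20519920) had 359 reads at 11 °C and 235 at 25 °C, a difference of -0.61. The fitted log2 fold change of that Tak1 peak was -0.56 with an FDR of 1.57e-05 in the authors' deposited table. Of the peaks in the same decile of read number, 2.35% had a difference at least as large. The second Tak1 peak lies 5312 bp away across the upper-coordinate end of the gene (X, 20524832 to 20525232), and it was not called, with 267 reads at 11 °C and 265 at 25 °C in the authors' deposited table (FDR 0.979). The 2 peaks differ in place, 1 within the gene body and 1 at its end, and no protein-coding gene other than Tak1 lies within 1000 bp of either. The next peak on the lower side, 8984 bp from the changed one and near RhoGAP19D, had a difference of -0.14 and was not called (FDR 0.494 in the authors' deposited table).

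For key, the regulatory subunit of the IKK complex, the single peak sits across the upper-coordinate end of that gene (2R, 24787193 to 24787593). The authors' deposited table lists 182 reads at 11 °C and 143 at 25 °C for key, a difference of -0.35 and a fitted log2 fold change of -0.22 (FDR 0.0442). The peak is shared with Reg-5, and a difference at least as large was found in 15.9% of peaks of similar read number. Within 20 kb of it lay 6 further peaks, with differences of -0.27 to 0.04. The peak at GstE12 and Eps-15 was the 1 called among them, and like that of key it was higher at 11 °C.

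For the caspase Dredd and the NF-kappaB factor Rel no peak met the rule. The peak nearest to Rel (3R, 9044183 to 9047977) lay 4531 bp below the gene, at neur and hyx, and had 232 reads at 11 °C and 212 at 25 °C in the authors' deposited table (FDR 0.628). On the other side of Rel the nearest peak was 17150 bp away. The peak nearest to Dredd (X, 633622 to 635545) lay 1592 bp above it, at the gene su(sable), and held 541 reads at 11 °C and 472 at 25 °C in the authors' deposited table (FDR 0.183). Lacking a listed peak is common in this table. Of 13935 protein-coding genes 59.4% had a peak by the same rule, and 54.5% of those shorter than 5000 bp, a size both genes fall under. Nothing is therefore known here of the accessibility of these 2 genes.

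Among the inhibitors, PGRP-LB encodes an amidase that breaks down peptidoglycan and so removes the ligand before it reaches the receptors. It had 3 peaks along 7704 bp. The middle one, 1575 bp inside the lower-coordinate end (3R, 11454224 to 11454624), had 218 reads at 11 °C and 149 at 25 °C in the authors' deposited table. The difference of that PGRP-LB peak was -0.55 and its fitted log2 fold change -0.48 (FDR 0.000214) in the authors' deposited table, and 6.82% of peaks of similar read number differed by as much. Its neighbours on either side, 2159 and 3752 bp away, were not called. The lower PGRP-LB peak had 65.0 reads at 11 °C and 64.2 at 25 °C (FDR 0.945), and the upper one had 250 at 11 °C and 244 at 25 °C (FDR 0.865), all from the authors' deposited table. The gene CG17230 overlaps all 3 peaks by the same rule, so the change cannot be given to PGRP-LB alone.

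PGRP-LF is a membrane protein without a signalling tail that binds PGRP-LC and holds it back. Its only peak sits across its lower-coordinate end (3L, 9349307 to 9349707), with 187 reads at 11 °C and 230 at 25 °C in the authors' deposited table. For PGRP-LF the difference was 0.30 and the fitted log2 fold change 0.23 (FDR 0.0233) in the authors' deposited table. No other gene lies in reach of that peak. A difference as large was found in 18.7% of peaks of similar read number. The third inhibitor gene, pirk, encodes a cytoplasmic protein that binds PGRP-LC and imd and is itself a target of the pathway. Its peak (2R, 21662284 to 21662684) held 181 reads at 11 °C and 201 at 25 °C in the authors' deposited table, a difference of 0.15 that was not called (FDR 0.351). A long noncoding RNA gene, lncRNA:CR44748, shares the pirk peak.

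**Figure D2:**
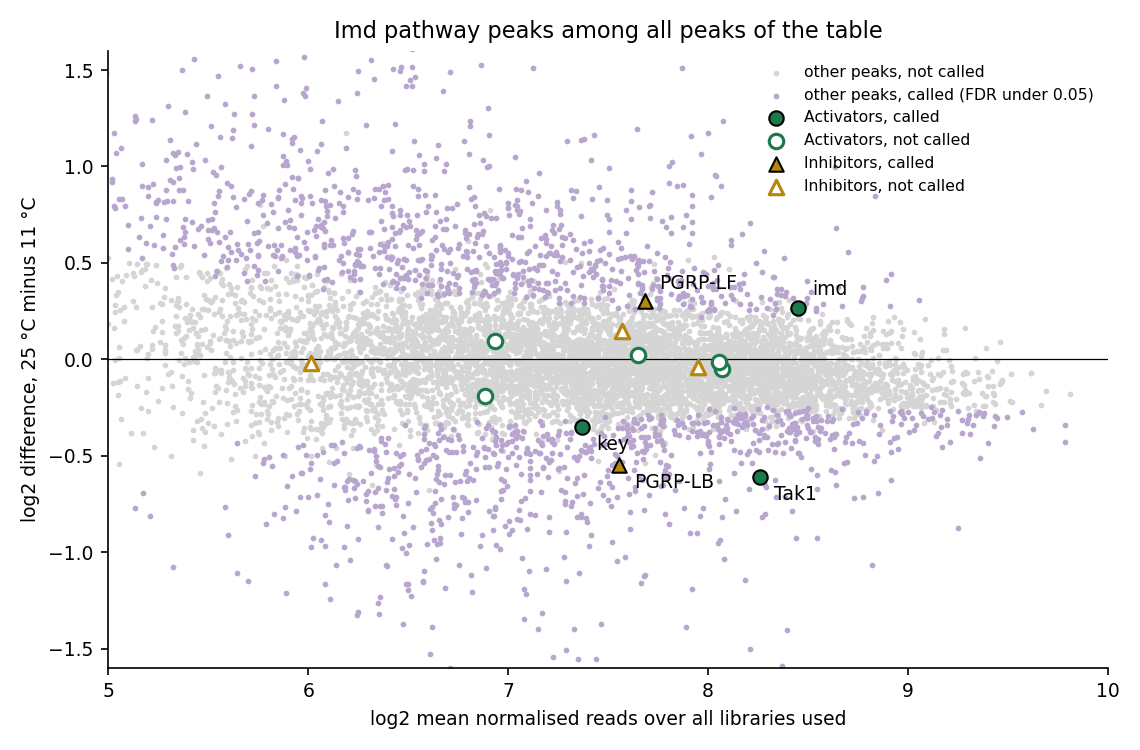
Log2 difference of mean normalised reads, 25 °C minus 11 °C (vertical axis), against the log2 mean over all libraries used (horizontal axis), 1 point per peak. Activators are circles and inhibitors triangles, filled where called, over all other peaks in grey and purple, of which 260 lie outside the plotted range. The Tak1 and PGRP-LB peaks lie lowest of the members, at -0.61 and -0.55, and the 5 called members stand on both sides of 0.

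The 3 called peaks at gene ends and the 2 within gene bodies differed in FDR. At an FDR under 0.01 the gene-body peaks of Tak1 and PGRP-LB were still called, both higher at 11 °C. Of all peaks 14.9% passed that threshold, 6.35% higher at 11 °C and 8.55% higher at 25 °C. The peaks at the ends of imd, key and PGRP-LF had FDR values between 0.01 and 0.05 in the authors' deposited table. By place, 2 of 6 gene-body peaks, 3 of 5 gene-end peaks (midpoint within 500 bp of an end) and 0 of 2 peaks further outside were called at an FDR under 0.05. Over all peaks 22.2% were called at that threshold. The share of all peaks called by place was not computed, and classes this small allow no comparison between places. In accessibility, the members' reads ran between 65.0 and 359 at 11 °C and between 64.2 and 387 at 25 °C, with medians of 200 at 11 °C and 203 at 25 °C, against 163 in the median peak of the table.

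PGRP-LC and PGRP-LF are neighbours on 3L, and another recognition gene, PGRP-LA, lies on the other side of PGRP-LC. The gap is 474 bp between PGRP-LA and PGRP-LC and 1273 bp between PGRP-LC and PGRP-LF. Accessibility at 11 °C was higher at both PGRP-LA peaks, the single PGRP-LC peak was not called, and the PGRP-LF peak was higher at 25 °C. By the authors' deposited table the PGRP-LA peak across its lower end (3L, 9333942 to 9334342) had 95.9 reads at 11 °C and 55.8 at 25 °C, a difference of -0.78 (FDR 5.99e-06). The PGRP-LA peak within the gene (3L, 9335564 to 9335964) had 241 reads at 11 °C and 183 at 25 °C in the authors' deposited table, a difference of -0.39 (FDR 0.00589). Calls in both directions thus lay within a stretch of under 20 kb. Whether the PGRP-LA and PGRP-LF differences differ from each other beyond replicate error was not tested, for want of single-library values. The PGRP-LF peak is also the nearest one beyond the 1000 bp limit of PGRP-LC, at 1171 bp from its end, whereas the imd peak at 723 bp was the farthest one within a limit. Beyond these, the su(sable) peak at 1592 bp from Dredd was the next one outside.

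**Figure D3:**
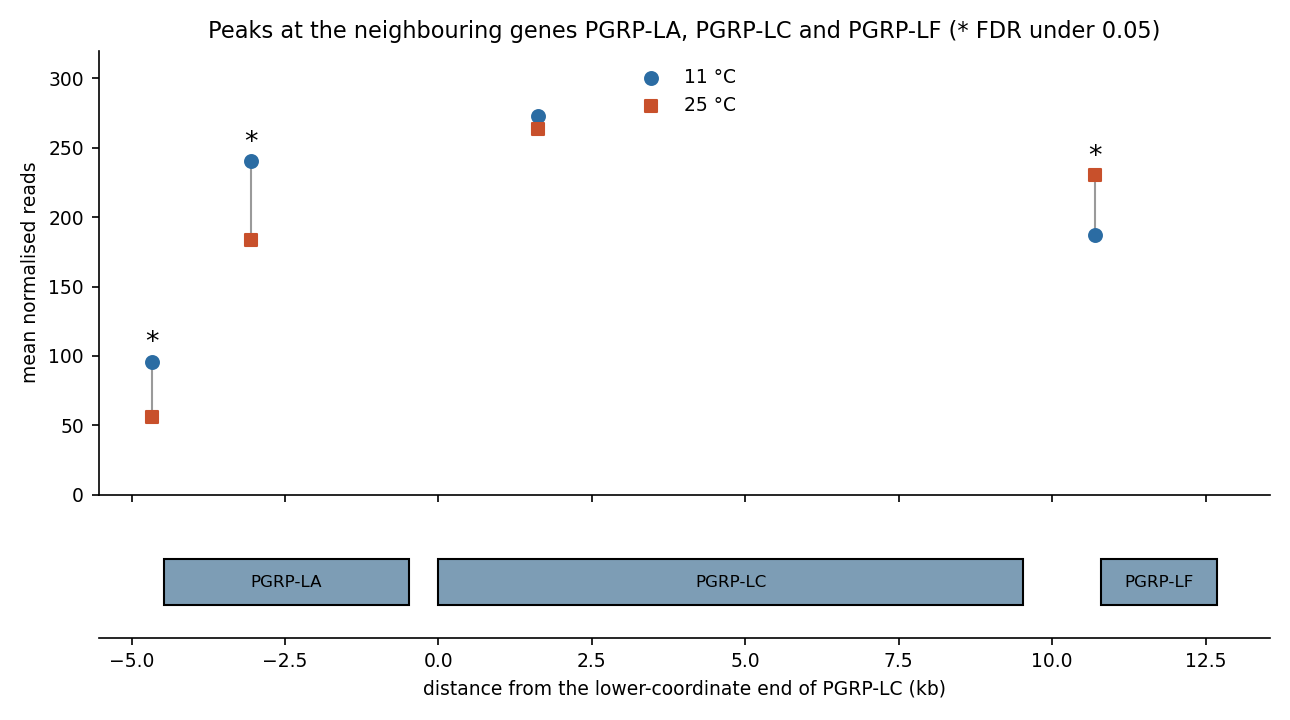
Mean normalised reads (vertical axis) at 11 °C (blue circles) and 25 °C (red squares) of the 4 peaks at PGRP-LA, PGRP-LC and PGRP-LF, by distance from the lower-coordinate end of PGRP-LC in kb (horizontal axis), with the gene spans drawn to scale below. The 11 °C value is the higher of the pair at both PGRP-LA peaks and the lower at PGRP-LF.

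A wider list of 24 genes of the cascade and its regulators had 34 peaks at 19 genes, of which 5 were higher at 11 °C and 5 at 25 °C. Over all peaks 10.0% were called higher at 11 °C and 12.2% higher at 25 °C, and the counts of the wider list were not tested against these shares. The median difference of that list was 0.02. Of the calls higher at 11 °C, the lowest FDR values belong to PGRP-LA, above, and to nub, a POU-domain transcription factor that restrains immune genes in the gut. The called nub peak, 1 of 2, had 101 reads at 11 °C and 69.2 at 25 °C in the authors' deposited table (difference -0.55, FDR 0.00384). The other nub peak, within the gene, was not called (difference -0.14, FDR 0.527 in the authors' deposited table). Of the calls higher at 25 °C, the lowest FDR values belong to the amidase genes PGRP-SB1 and PGRP-SC2. PGRP-SB1 had 170 reads at 11 °C and 243 at 25 °C in the authors' deposited table (difference 0.51, FDR 0.00196), with Dbp73D in reach of the same peak. PGRP-SC2 had 35.8 reads at 11 °C and 59.2 at 25 °C (difference 0.73, FDR 0.00312 in the authors' deposited table), few reads beside the median peak. PGRP-SB1 and PGRP-SC2 thus lay on the other side of 0 from the called peak of PGRP-LB, also an amidase gene.

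The remaining called genes of that list are Tab2, Diap2, dnr1 and PGRP-SD, which were picked for mention after their values were seen, as was the PGRP-LA peak within the gene. Tab2, whose product binds Tak1 and links it to ubiquitin chains, had 404 reads at 11 °C and 312 at 25 °C at 1 of its 4 peaks in the authors' deposited table (difference -0.38, FDR 0.0191). Diap2, the ubiquitin ligase that acts on imd, had 226 reads at 11 °C and 185 at 25 °C at 1 of 2 peaks (difference -0.29, FDR 0.0313 in the authors' deposited table), a peak shared with bdg. For the dnr1 gene, whose product lowers Dredd levels, 2 of 4 peaks were called, both higher at 25 °C. They had 212 and 131 reads at 11 °C against 267 and 178 at 25 °C in the authors' deposited table, for dnr1 differences of 0.33 and 0.44 (FDR 0.00367 and 0.00540). PGRP-SD, a secreted recognition protein, had 108 reads at 11 °C and 141 at 25 °C in the authors' deposited table (difference 0.39, FDR 0.00605), at a peak shared with CG32373 and CG7492. Also named outside the rule, neither the peak of ird5, the catalytic subunit beside key, nor that of the adaptor Fadd was called (FDR 0.616 and 0.337 in the authors' deposited table).

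Downstream of Tak1 the pathway also feeds into JNK signalling. All 7 genes of that list had a peak, and of 14 peaks none was called higher at 11 °C and 2 were higher at 25 °C, with a median difference of -0.05. The 2 were at hep, the kinase that activates JNK, and at puc, the phosphatase that ends its activity. Over all peaks 10.0% were called higher at 11 °C and 12.2% higher at 25 °C. Neither the JNK counts nor those of the peptide genes below were tested against these shares. The called hep peak had 57.2 reads at 11 °C and 86.3 at 25 °C in the authors' deposited table (difference 0.59, FDR 0.00074), few reads beside the median peak. The other peak of hep, at the end of the gene, was not called (difference -0.23, FDR 0.171 in the authors' deposited table). That hep peak had 214 reads at 11 °C and 183 at 25 °C in the authors' deposited table. The puc peak had 185 at 11 °C and 267 at 25 °C (difference 0.53, FDR 0.0430 in the authors' deposited table). The other 3 peaks of puc had differences of -0.30, -0.24 and -0.09 and were not called. Of 11 antimicrobial peptide genes that Rel turns on, 4 had a peak. AttC and AttD were called higher at 25 °C, with differences of 0.40 and 0.75 (FDR 0.0260 and 0.00192 in the authors' deposited table), and DptA and DptB were not called. The AttC peak is shared with CG43691 and CG4744, and the AttD peak lies 554 bp outside its gene, beside tRNA genes.

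**Figure D4:**
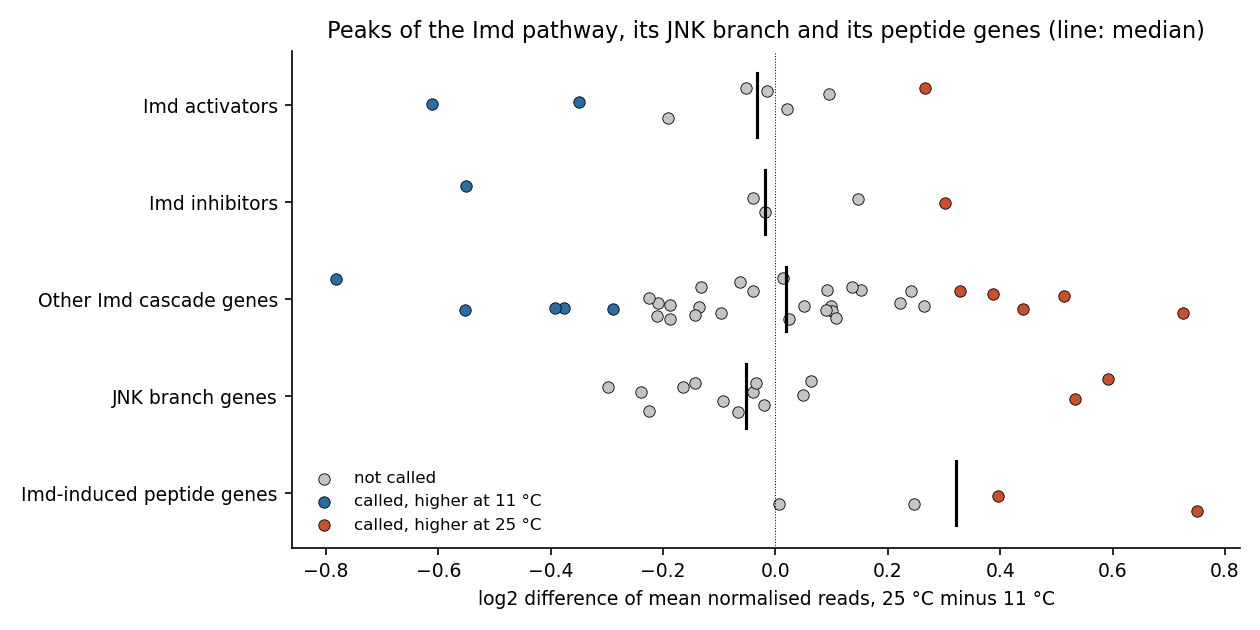
Log2 difference of mean normalised reads, 25 °C minus 11 °C (horizontal axis), of each peak in 5 gene lists (rows; points are spread vertically for legibility), with blue for peaks called higher at 11 °C, red for those called higher at 25 °C, grey for the rest and a black line at the median. The medians of activators, inhibitors and the wider cascade lie between -0.03 and 0.02, and that of the 4 peptide gene peaks at 0.32.

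The tissue label was set against marker genes. Over all peaks 10.0% were called higher at 11 °C and 12.2% higher at 25 °C, and no marker count was tested against these shares. Of 12 fat body genes 9 had a peak, among them Yp1, Yp2, Yp3 and apolpp, and their 26 peaks summed to 4753 reads at 11 °C and 6517 at 25 °C, with 2 called higher at 11 °C and 8 at 25 °C. The gene apolpp alone holds 6 of the 8, and by gene the calls were at 2 genes for 11 °C (srp and Ilp6) and at 3 for 25 °C (apolpp, Yp1 and Yp3). For hemocytes, the blood cells that also use this pathway, 5 of 12 genes had a peak, none of them Hml or eater. Their 7 peaks summed to 1845 reads at 11 °C and 1570 at 25 °C, with 2 calls each way. Those higher at 11 °C were at the collagen genes Col4a1 and vkg, and those higher at 25 °C at crq and PPO2. The Col4a1 peak had 524 reads at 11 °C and 364 at 25 °C, and the called vkg peak 151 and 95.7. Neither collagen gene was in the hemocyte list as first planned, and peaks of the other hemocyte genes differed in both directions. The other marker lists also hold genes added to the plan. Those with a called peak are Ilp6 among fat body genes, desatF among oenocyte genes and nub among gut genes. Oenocyte genes, from cells that lie beside the fat body, had 0 of 21 peaks called higher at 11 °C and 9 at 25 °C, with sums of 4170 reads at 11 °C and 4555 at 25 °C. By gene, the 9 calls were at 6 of the 7 oenocyte genes with a peak, with 3 at svp and 2 at FASN3. Muscle genes had 1 peak in all, at Mhc, higher at 25 °C, gut genes 3 and ovary genes 5, of which 1 and 0 were called. The gut list shares nub, with 2 of its 3 peaks, with the wider cascade list. Its called peak is the nub peak given above, higher at 11 °C, and is thus counted in both lists. The part of these cells in the Imd pathway differences was not tested.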

How the data were processed

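ATAC-seq reads were processed by the authors. The build was dm6, and per the submitters' processing notes the tools were DiffBind, MACS2 and Bowtie2, with Picard, SAMtools and bedtools, as well as cutadapt, FastQC and Trim Galore. Roles, versions, the treatment of duplicates, the shift for the transposase offset and the scaling are not given in the sources used here, and scaling can move all differences by a common amount. Per the file headers, the deposited values are log2 mean concentrations (normalised reads), a fitted log2 fold change, and a p-value with its FDR. The FDR was checked to equal a Benjamini-Hochberg adjustment. The fold change had the sign of the difference of concentrations in all but 240 peaks, none called. Weights of 3 to 4 in the overall mean held in 3446 of 3457 peaks that differ by over 0.2 (tolerance 1e-06), and 6 against 8 libraries would give the same.

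Peaks were assigned by midpoint to gene spans of RefSeq (Release 6 plus ISO1 MT, 17796 genes, no strand or exons). Reads are 2 to the power of the concentration. Calls rest on the deposited FDR, and no model could be refitted because single libraries are not listed. The assignment and the centring by read number were tested on simulated data. Members and lists were chosen with earlier results of these data known. Of the lists, ird5, Trbd and desatF matched by synonym and all others by symbol. All 10 members were named whatever their values, and from other lists up to 2 called peaks per direction with the lowest FDR. Further called peaks of the wider cascade list were added after their values were seen, and the text says which. The planned motif search was not run, since no sequence was used here. Python 3.11.15, pandas 2.3.3, numpy 2.4.6 and matplotlib 3.10.9 were used.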

Additional observations from a re-analysis of the deposited data

How the results depend on the processing

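The 5 calls rest on means over libraries, so leaving out a replicate was not possible, and no depth per library is known. No paired analysis was possible because the table gives 1 mean per temperature and no column carries a replicate number. At an FDR under 0.01 the number of called members was 2 (0 higher at 25 °C, 1 activator, 1 inhibitor). At an FDR under 0.1 it was again 5. The 7 peaks with midpoints inside the gene (a window of 0 bp) gave 3 calls, with 0 higher at 25 °C and 1 inhibitor. Without peaks that reach another protein-coding gene 2 calls were left of 6 peaks, 1 at an activator and higher at 11 °C (Tak1) and 1 at an inhibitor and higher at 25 °C (PGRP-LF). Windows of 500 and 2000 bp, the removal of the lowest 25% of peaks by read number, and a least difference of 0.25, an alternative chosen after seeing the data, changed each number of calls by at most 1.5 times. With a window of 2000 bp the called PGRP-LF peak also came in reach of PGRP-LC and was counted in both roles. Activator calls thus became 4, while the called peaks in all stayed at 5.

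The medians of both roles are near 0 and their sign depended on the setting. For activators the median was 0.026 after centring within deciles of read number and -0.20 with a window of 0 bp. For inhibitors it was 0.0201 after that centring, 0.054 with a window of 500 bp, 0.15 with 1 value per gene, and 0.22 without shared peaks, which leaves 2 inhibitor peaks. Of single peaks, 3 that were not called changed sign: PGRP-LC to 0.0066, Tak1 peak 2 to 0.045 and PGRP-LB peak 3 to 0.0201 after centring, and Tak1 peak 2 to 0.0039 as the fitted fold change. The causes were not tested. All 5 called peaks kept their direction under both alternatives.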
